A study of Mus musculus with 8 samples.

Results

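The genes described here write, remove or read methylation of histone H4 at lysine 20 (H4K20): *Kmt5a*, *Kmt5b*, *Kmt5c*, *Phf2*, *Trp53bp1* and *Orc1*. Peaks of these genes were taken from a table of R-loop peaks by the gene annotated to each peak. The members were 16 of 28265 union peaks, in 6 of the 8490 genes with a peak. The table spells *Trp53bp1* as Tp53bp1, so its 5 peaks were found by the gene identifier ENSMUSG00000043909, and matching by spelling alone would have left 11 peaks. All 16 peaks lay on autosomes and passed the level filter of the test, a mean score over 30.

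R-loops were mapped by immunoprecipitation of RNA:DNA hybrids with the S9.6 antibody and sequencing (DRIP-seq) in mouse muscle satellite cells (MuSCs), the stem cells of skeletal muscle. The control libraries (Ctrl) carried the genotype Pax7CreERT/Suv4-20h1WT and the knockout libraries (*Kmt5b* sKO) the genotype Pax7CreERT/Suv4-20h1KO, where Suv4-20h1 is an older name of *Kmt5b*. Each genotype had 3 S9.6 libraries with DNA of Drosophila S2 cells added as a spike-in. The study calls the libraries biological replicates, and the labels do not tie a library to an animal or culture. Both genotypes carried the tamoxifen-inducible Cre driven by *Pax7*, which acts in cells expressing *Pax7*, and the cells were purified from adult mice given tamoxifen and then cultured. Age and sex were not given in the labels.

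H4K20 is methylated in steps. KMT5A (SET8) adds the first methyl group, mainly in G2 and mitosis, and KMT5B and KMT5C turn the monomethyl mark into the di- and trimethyl marks, with KMT5C being the main enzyme of trimethylation at heterochromatin. The dimethyl mark is bound by the tandem Tudor domain of 53BP1 (*Trp53bp1*), a factor of DNA double-strand break repair, and by the BAH domain of ORC1, the largest subunit of the complex that marks replication origins. PHF2 is a JmjC-domain histone demethylase that has been linked to removal of H3K9 and H4K20 methylation. An R-loop forms where a transcript pairs with its template DNA and the other strand is displaced, and R-loops are favoured where the transcript is rich in G.

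The R-loop peaks were centred within the gene bodies, and those of *Kmt5b*, *Kmt5c*, *Kmt5a* and *Orc1* beyond the midpoint of the gene, while *Phf2* also had peaks near its start. The map of the 6 genes shows 1 peak each in *Kmt5b*, *Kmt5c* and *Kmt5a*, 2 in *Orc1*, 5 in *Trp53bp1* and 6 in *Phf2*. None of the 16 had its centre within 1 kb of the annotated start, where 1.03% of the 20873 tested peaks of coding genes lay. The nearest peak edge was 1.12 kb from the start in *Phf2*, 2.49 kb in *Kmt5c*, 13.5 kb in *Kmt5a*, 23.6 kb in *Orc1*, 29.0 kb in *Trp53bp1* and 37.8 kb in *Kmt5b*. The centre lay beyond the midpoint of the gene in 11 of 16 peaks (68.8%), against 54.9% of tested peaks of coding genes, and 3 peaks ran past the annotated gene end. Exon sequence made up a median of 16.4% of a member peak and 0.52% of a tested peak of a coding gene, and 9 of 16 peaks held an exon against 50.6% of the coding ones. GC content had a median of 47.8% against 43.0%, and soft-masked (repeat) sequence 15.2% against 23.7%. Peak length was close to that of other coding genes, with medians of 2900 bp and 2800 bp. These differences were not tested, because peaks of the same gene share their surroundings.

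**Figure D1:**
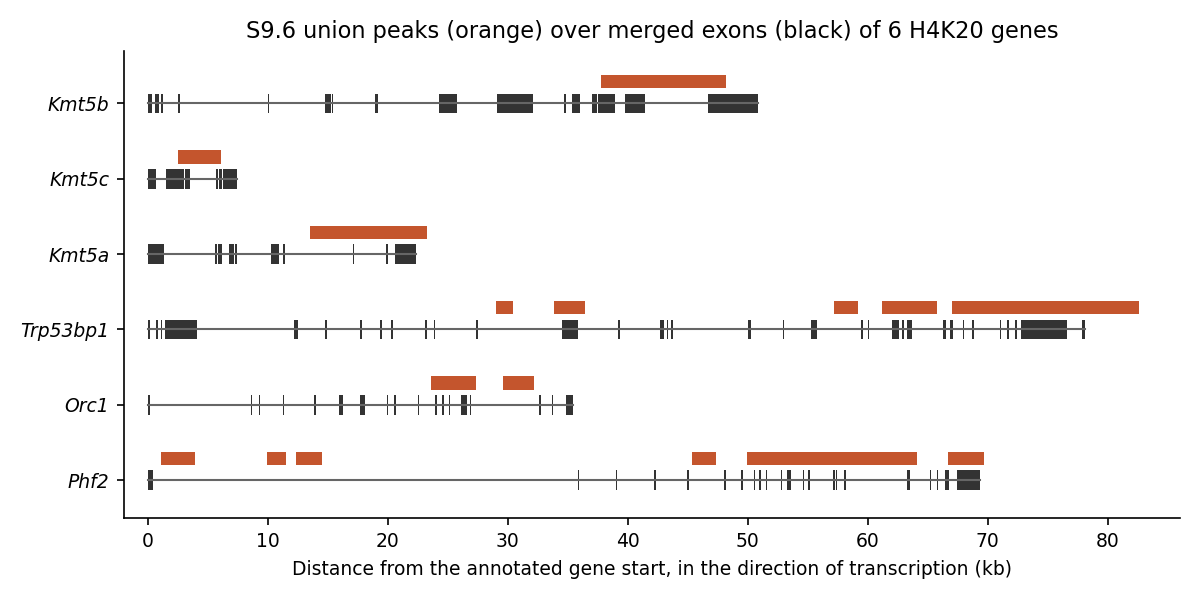
The 6 genes drawn to scale from the annotated start in the direction of transcription (kb), with merged exons in black and union peaks in orange. The *Kmt5b* peak begins 37.8 kb into a gene of 50.9 kb, and the last peak of *Trp53bp1* runs 4480 bases past the gene end.

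The sequence under the peaks is shown for the methyltransferase genes *Kmt5c* and *Kmt5a* and for *Orc1*, the gene whose first peak had the lowest fitted change. From the 200-base bins of the peaks of each gene, leaving out bins with untranslated or non-coding exon sequence or an exon of another gene, the bin with the highest G over C skew on the coding strand was taken, where skew is (G − C)/(G + C). The bins are intronic, the build is GRCm38, the genes lie on the plus strand, and capitals mark runs of 3 or more G. The *Kmt5c* bin is chr7:4745001-4745200 with a skew of 0.37, the *Kmt5a* bin chr5:124453601-124453800 with 0.38, and the *Orc1* bin chr4:108603601-108603800 with 0.35.
Kmt5c: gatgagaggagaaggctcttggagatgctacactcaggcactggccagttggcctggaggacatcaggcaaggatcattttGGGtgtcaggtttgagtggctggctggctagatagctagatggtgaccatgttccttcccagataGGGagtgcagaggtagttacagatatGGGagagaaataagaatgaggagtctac
Kmt5a: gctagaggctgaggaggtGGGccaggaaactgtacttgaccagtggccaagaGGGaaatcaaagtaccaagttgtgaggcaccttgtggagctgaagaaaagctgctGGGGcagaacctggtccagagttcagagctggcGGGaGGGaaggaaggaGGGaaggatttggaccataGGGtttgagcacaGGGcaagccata
Orc1: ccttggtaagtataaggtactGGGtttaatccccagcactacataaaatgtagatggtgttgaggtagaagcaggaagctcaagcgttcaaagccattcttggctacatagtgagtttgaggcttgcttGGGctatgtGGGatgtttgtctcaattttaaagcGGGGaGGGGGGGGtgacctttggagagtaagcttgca
The *Kmt5c* bin holds 3 G runs, the *Orc1* bin 5 and the *Kmt5a* bin 8. Over whole peaks, G runs on the coding strand were most frequent in *Kmt5c*, at 24.4 per kb, followed by *Phf2*, *Kmt5a* at 14.9, *Orc1* at 14.5, *Kmt5b* at 12.1 and *Trp53bp1* at 11.5. G exceeded C on the coding strand in 12 of 16 member peaks and in 74.8% of the tested peaks of coding genes.

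The *Kmt5b* peak (ENSMUSG00000045098) spans 10400 bp at chr19:3805200-3815599 (mm10, coordinates as in the table) and covers 20.4% of the gene. It reaches from the 14th of 16 merged exons into the last, which carries most of the coding sequence under the peak, 1472 of 1766 bases, and it also lies over the antisense gene *Gm16066*. The table carries no strand of the signal, so transcripts of *Kmt5b* and *Gm16066* cannot be told apart. The score, a spike-in scaled sum of signal over the peak, was 412, 658 and 420 in the Ctrl libraries and 440, 449 and 484 in the *Kmt5b* sKO libraries, each in the order of replicates 1, 2 and 3. S9.6 signal was present at the locus in all 3 libraries labelled as knockout, and the groups overlapped, with Ctrl replicate 2 above every other library and Ctrl replicates 1 and 3 below all 3 *Kmt5b* sKO libraries. On the log2 scale the fitted change was −0.08, with a 95% interval from −0.36 to 0.20 and an adjusted p of 0.68 (limma, Benjamini-Hochberg over 25815 peaks). That interval takes its variance from the trend across peaks. With the variance of this peak alone it ran from −0.71 to 0.54, which does not exclude a loss of 1.5-fold. The value also depended on the scale of the libraries. It was −0.29 with equal library totals (limma adjusted p = 0.0096) and −0.54 with each library centred on its median peak (limma adjusted p = 7.7e-07), both short of 1.5-fold. Both p-values again take their variance from the trend across peaks. An exact permutation test of the centred *Kmt5b* score, which allows no p under 0.1, gave an adjusted p of 0.12. In bulk cells, fewer cells with a hybrid and less hybrid per cell cannot be told apart.

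Ctrl replicate 2 stood higher at *Kmt5b* than at the other 5 genes. Its score was 1.58 times the mean of the other Ctrl libraries, against a median of 1.18 over 7995 genes, which placed *Kmt5b* at the 96.2 percentile. The same ratio was 1.20 for *Kmt5a*, 1.22 for *Kmt5c*, 1.15 for *Trp53bp1*, 1.22 for *Phf2* and 1.25 for *Orc1*. Without Ctrl replicate 2 the log2 fold change of the *Kmt5b* peak was 0.14. The genes whose pattern over the 6 libraries came closest to that of *Kmt5b* shared the high value of Ctrl replicate 2. They were *Serinc5*, *Rab18*, *Tmem214*, *Kif5b* and *Gpc1*, at Euclidean distances of 0.13 to 0.16 between centred log2 scores, where the median of 7994 genes was 0.73. Because they were chosen on these same libraries, their high Ctrl replicate 2 follows from the choice and is no separate result. Of the other members *Phf2* was the closest, at 0.34 and rank 587, and *Kmt5c* the farthest, at 0.73 and rank 4016.

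Whether the peak covers the deleted segment was examined through the primers used for Suv4-20h1. The RT-qPCR forward primer TCATGGTAACTCGGGATTTGA matched chr19:3793069-3793089, in an exon that ends 11985 bases before the peak. The reverse primer AGGAAAGGCGCTAGTGTTCA spans an exon junction, with 10 bases in each exon, and the downstream exon of most of the 11 matching transcripts ends 8492 bases before the peak. This amplicon of 157 bp therefore lies outside the peak. The genotyping primers for the loxP site had no match in the reference within 20 kb of the gene. The place of the deleted segment relative to the peak was not given in the sources used here, so a retained peak is no check of the deletion.

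*Kmt5c*, the paralogue of *Kmt5b*, had a peak of 3600 bp at chr7:4742600-4746199 (ENSMUSG00000059851), over 4 merged exons and 48.6% of a gene of 7.4 kb. Its score was 136, 159 and 125 in Ctrl and 214, 146 and 164 in *Kmt5b* sKO. *Kmt5b* sKO replicate 1 was the highest of the 6 libraries, and the groups overlapped in *Kmt5b* sKO replicate 2. The log2 fold change was 0.31 (95% interval −0.04 to 0.65, limma adjusted p = 0.16). *Kmt5a*, which supplies the monomethyl substrate, had a peak of 9800 bp at chr5:124453400-124463199 (ENSMUSG00000049327) that covers the 3′ part of the gene and runs 892 bases past its end. Its score was 385, 444 and 356 in Ctrl and 457, 508 and 414 in *Kmt5b* sKO. The lowest *Kmt5b* sKO library lay below the highest Ctrl library. The log2 fold change was 0.22 (95% interval −0.06 to 0.50, limma adjusted p = 0.23).

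Setting *Kmt5b* against its paralogue and partners within each library removes the scale of the library. The *Kmt5b* score was 3.01, 4.12 and 3.34 times that of *Kmt5c* in Ctrl and 2.05, 3.06 and 2.94 times in *Kmt5b* sKO. The ratio to *Kmt5a* was 1.07, 1.48 and 1.18 in Ctrl and 0.963, 0.884 and 1.17 in *Kmt5b* sKO. Both ratios had a lower mean in *Kmt5b* sKO with 1 library of that genotype inside the Ctrl range. The log2 differences were −0.39 for *Kmt5c* and −0.30 for *Kmt5a*, each with p = 0.2 in a two-sided exact permutation test and 0.5 after adjustment over the 5 pairs. The differences were −0.12 against *Trp53bp1*, −0.06 against *Phf2* and 0.01 against *Orc1*, with adjusted p = 1 in the exact permutation test for each. With 3 libraries against 3 the smallest p this test allows is 0.1. The difference from *Kmt5c* was −0.21 without *Kmt5b* sKO replicate 1, and that from *Kmt5a* was −0.17 without Ctrl replicate 2.

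*Trp53bp1* lies on the minus strand and its 5 peaks, numbered from the gene start, cover 33.5% of a gene of 78.1 kb. The first is a peak of 1400 bp without an exon at chr2:121241000-121242399, with 67.1% soft-masked sequence, and its score was 43, 36 and 34 in Ctrl and 55, 55 and 52 in *Kmt5b* sKO. The second, 2600 bp at chr2:121235000-121237599, holds a long coding exon that fills 49.9% of it, and its score was 62, 66 and 78 in Ctrl and 92, 97 and 102 in *Kmt5b* sKO. In both peaks every *Kmt5b* sKO library lay above every Ctrl library. The log2 fold changes were 0.51 (95% interval −0.06 to 1.09, limma adjusted p = 0.16) and 0.50 (0.08 to 0.92, limma adjusted p = 0.054). With the variance of each peak alone the intervals ran from 0.23 to 0.80 and from 0.20 to 0.79. The adjusted p of that t-test was 0.058 and 0.064. Neither peak reached the fold change of 1.5 that a call required.

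The third *Trp53bp1* peak, 2000 bp of intron at chr2:121212200-121214199, had scores of 50, 55 and 47 in Ctrl and 46, 69 and 38 in *Kmt5b* sKO, where the knockout libraries spread on both sides of the Ctrl range. Peak 4, 4600 bp over 3 merged exons at chr2:121205600-121210199, had scores of 120, 170 and 130 in Ctrl and 175, 197 and 162 in *Kmt5b* sKO, and its log2 fold change was 0.36 (95% interval 0.01 to 0.70, limma adjusted p = 0.096). Peak 5, the longest of the 16 with 15600 bp at chr2:121188800-121204399, covers 8 merged exons, runs 4480 bases past the gene end and overlaps *Tubgcp4*, which is transcribed towards it. Its score was 576, 645 and 545 in Ctrl and 540, 485 and 545 in *Kmt5b* sKO, with a log2 fold change of −0.17 (limma adjusted p = 0.36). The share of the summed *Trp53bp1* score that fell in this last peak was 67.7%, 66.4% and 65.3% in Ctrl and 59.5%, 53.7% and 60.6% in *Kmt5b* sKO. The groups did not overlap in this share, which was computed after the values were seen and was given no test. The summed score of the gene averaged 886 ± 75.2 in Ctrl and 903 ± 4.51 in *Kmt5b* sKO (SD over 3 libraries).

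*Orc1* (ENSMUSG00000028587) carried 2 peaks, both under the antisense gene *Gm12743*. The first, 3800 bp over 5 merged exons at chr4:108603000-108606799, had scores of 123, 157 and 119 in Ctrl and 106, 95 and 113 in *Kmt5b* sKO. Every *Kmt5b* sKO library lay below every Ctrl library, as in no other member peak. The log2 fold change was −0.34 (95% interval −0.71 to 0.04, limma adjusted p = 0.15), the lowest of the 16 and at the 4.55 percentile of all tested peaks. The second, 2600 bp without an exon at chr4:108609000-108611599, had scores of 71, 82 and 69 in Ctrl and 103, 92 and 69 in *Kmt5b* sKO, with a log2 fold change of 0.23 (limma adjusted p = 0.42). The first peak scored 1.73, 1.91 and 1.72 times the second in Ctrl and 1.03, 1.03 and 1.64 times in *Kmt5b* sKO, a description with no test.

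*Phf2* (ENSMUSG00000038025, minus strand) had the most peaks. Its longest peak, 14200 bp over 11 merged exons at chr13:48807000-48821199, had scores of 493, 601 and 454 in Ctrl and 515, 528 and 482 in *Kmt5b* sKO, with the knockout libraries inside the Ctrl range. The log2 fold change was −0.01 (95% interval −0.29 to 0.26, limma adjusted p = 0.95). The peak nearest to the start, 2800 bp of the first intron at chr13:48867200-48869999, had scores of 60, 71 and 83 in Ctrl and 79, 51 and 80 in *Kmt5b* sKO, again with overlap. The 4 others, of 1600 to 3000 bp, had log2 fold changes from −0.26 to 0.05, and over the 6 peaks the limma adjusted p ranged from 0.53 to 0.95. The longest peak took 62.8% of the *Phf2* score in Ctrl and 63.2% in *Kmt5b* sKO. The summed score of *Phf2* was 803, 806 and 805 in the *Kmt5b* sKO libraries and 774, 931 and 756 in Ctrl.

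Per length of peak, the 3 methyltransferase genes were the most densely covered. The score per kb over all peaks of a gene was 47.8 in Ctrl (range 39.6 to 63.3) for *Kmt5b*, 40.3 (36.3 to 45.3) for *Kmt5a* and 38.9 (34.7 to 44.2) for *Kmt5c*. It was 33.8 (31.8 to 37.1) for *Trp53bp1*, 32.3 (29.4 to 37.3) for *Orc1* and 31.8 (29.3 to 36.1) for *Phf2*. Each neighbouring pair in this order overlapped in Ctrl. Within each of the 6 libraries, though, the lowest of the 3 methyltransferase genes lay above the highest of the other 3, an order noted after the values were seen and not tested. It holds over all peaks of a gene and not for single peaks. In Ctrl replicate 3 the longest *Trp53bp1* peak was denser than the *Kmt5c* peak, and in *Kmt5b* sKO replicate 2 peak 4 of *Trp53bp1* was. In *Kmt5b* sKO the order among the methyltransferase genes was *Kmt5c* at 48.5, *Kmt5a* at 46.9 and *Kmt5b* at 44.0, with overlapping ranges, and *Trp53bp1* was at 34.5, *Phf2* at 31.2 and *Orc1* at 30.1. Density also differed along a gene, since the longest peaks of *Trp53bp1* and *Phf2* had 37.7 and 36.3 per kb in Ctrl and their shorter peaks 22.8 to 32.0. The median over tested peaks of coding genes was 29.1 per kb.

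**Figure D2:**
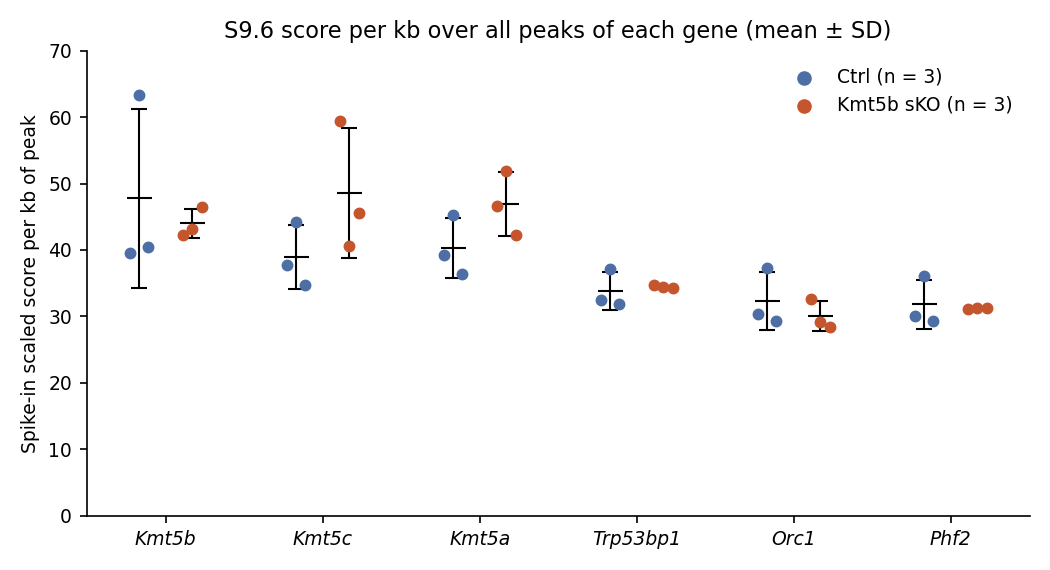
Spike-in scaled S9.6 score per kb of peak (linear axis from 0) for each gene, with a point per library and the mean ± SD over 3 libraries of each genotype. Over all peaks of a gene, *Kmt5b*, *Kmt5c* and *Kmt5a* sit above *Trp53bp1*, *Orc1* and *Phf2* within every library. Ctrl replicate 2 is the high Ctrl point in each gene.

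Summed over each gene, the libraries of both genotypes overlapped in all 6 genes. The exact permutation test of these sums allows no p under 0.1, so no gene could have passed whatever its values. The log2 ratios of *Kmt5b* sKO to Ctrl were 0.31 for *Kmt5c*, 0.22 for *Kmt5a*, 0.03 for *Trp53bp1*, −0.02 for *Phf2*, −0.08 for *Kmt5b* and −0.10 for *Orc1*. The adjusted p of the exact permutation test was 0.6 for *Kmt5c* and *Kmt5a* and 1 for the other 4.

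Among the peaks, 0 of 16 were called higher and 0 called lower in *Kmt5b* sKO by limma, where a call required a fold change above 1.5 and an adjusted p below 0.1. In the whole set of peaks 32.9% of the 25815 tested peaks were called higher and 0.883% lower. With each library centred on its median peak 3 of 16 members were called lower. Among all 25815 tested peaks that setting called 2647 higher and 3073 lower. After quantile normalization again 3 of 16 members were called lower, among 2071 peaks called higher and 1988 lower in all. Short peaks were called more often, and among peaks of at least 1400 bp, the length of the shortest member, 24.1% were called higher. Without the fold requirement 2 of 16 passed, peaks 2 and 4 of *Trp53bp1*, both higher, against 42.0% of all tested peaks. The same number had an unadjusted p under 0.05 in that direction, against 42.8%. The groups did not overlap in 2 peaks that were higher and 1 that was lower, against 41.5% and 3.81% of all tested peaks. The median log2 fold change was 0.02 (quartiles −0.09 and 0.25) against 0.35 (0.05 and 0.76) over all tested peaks and 0.25 over those of coding genes. It was above 0 in 8 of 16 member peaks and in 78.7% of tested peaks, and 13 of 16 lay below the median of all. In 9 of 16 peaks the 95% interval stayed inside 1.5-fold in both directions, and in the other 7 it did not exclude such a change. Intervals from the spread of each peak by itself did so in 5 of 16, and *Kmt5b* was not among them. Centring each library on its median peak, in place of the spike-in scale, moved the median of the members to −0.44 and that of all tested peaks to −0.11, so the members' median was the lower of both on either scale and its sign depended on the scale.

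**Figure D3:**
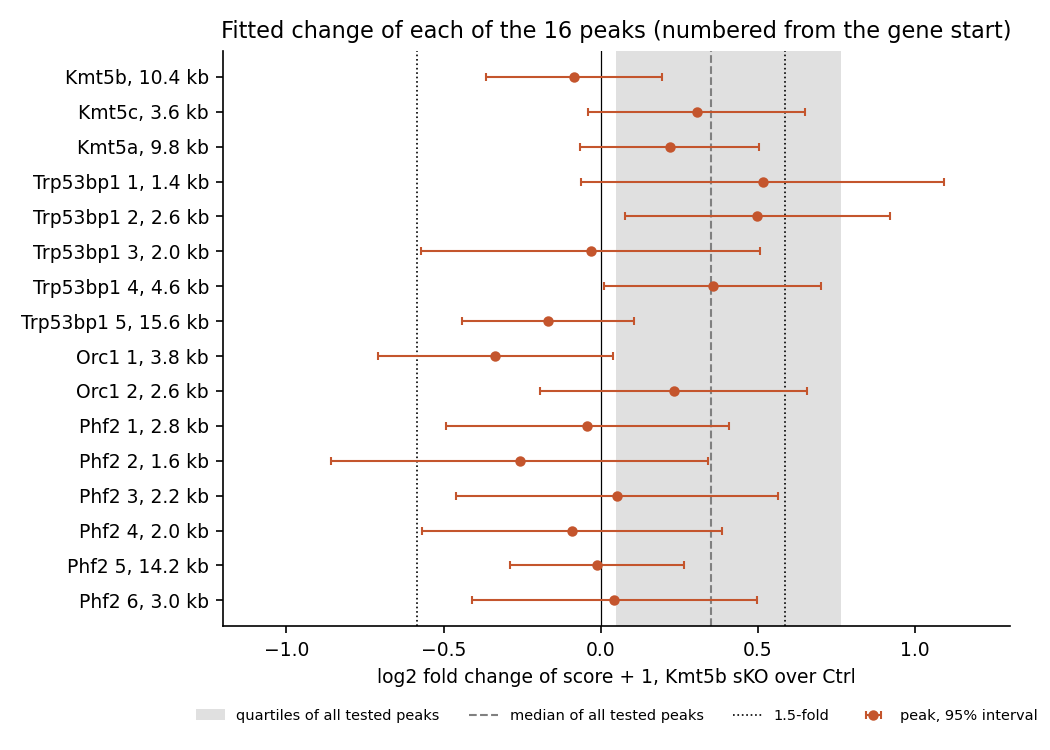
Fitted log2 fold change of score + 1 for each of the 16 peaks, *Kmt5b* sKO over Ctrl, with 95% limma intervals, the grey band giving the quartiles of all 25815 tested peaks (0.05 to 0.76), the dashed line their median (0.35) and dotted lines 1.5-fold. Of the 16 points 13 lie to the left of the dashed line, and none passes a dotted line.

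Other genes of the pathway rose at some of their peaks, at a share near that of tested peaks at large. A list of 64 further genes was drawn up as writers, erasers or readers of H4K20 methylation or as partners of the 6 members. In this list 49 genes had a peak, with 141 tested peaks. Of these 38 were called higher (27.0%), in 24 genes, and 0 lower by limma, and the median log2 fold change was 0.27. Called higher were 32.9% of all tested peaks and 24.1% of those of at least 1400 bp. The median over tested peaks of coding genes was 0.25. With centring the same list had 8 called higher and 20 lower. The list itself was not tested. For comparison, 36 enzymes listed under other histone lysines had 122 tested peaks and a median of 0.28. There 27 peaks were called higher (22.1%) and 2 lower, in *Kdm1b* and *Smyd1*. The lysine given to an enzyme is that of the list and was not tested.

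The counts by role stand against the 32.9% called higher among all tested peaks, and most lie near or below it. For the demethylase genes, 4 of 8 tested peaks were called higher, in *Kdm7a*, which encodes a JmjC enzyme, and *Rsbn1*. *Kdm7a* had 1 tested peak and *Rsbn1* 5, so most of these calls came from a single gene. Genes listed as other writers had 7 of 27 called higher, in *Ash1l*, *Nsd1*, *Nsd2*, *Nsd3* and *Smyd3*. Their activity on H4K20 was not examined here. Readers of methylated H4K20 had 10 of 38 called higher, in 7 genes that included the MBT-domain genes *L3mbtl1*, *L3mbtl2* and *L3mbtl4*. Readers of unmethylated H4K20 and their partners had 3 of 13, in *Brca1* and *Mms22l*, and a median of −0.07. The genes of the binding proteins themselves, *Tonsl* and *Bard1*, had no peak called. Among partners of ORC1, 6 of 19 were called higher, in *Orc3* and *Orc4*, whereas *Orc6*, *Cdc6* and *Cdt1* had no peak. Partners of 53BP1 had 5 of 15, in *Mdc1*, *Rnf8* and *Usp28*, all of which act in the signalling of double-strand breaks. Heterochromatin partners of KMT5B and KMT5C had 2 of 11, in *Cbx5* (HP1 alpha) and *Rb1*, and genes of KMT5A turnover 1 of 10, in *Cdc14b*. A mean Ctrl score below 30 was seen in called peaks of *Kdm7a*, *Rsbn1*, *Smyd3*, *Nsd1*, *Cbx5*, *Rnf8* and *Orc4*. Such peaks passed the level filter through the *Kmt5b* sKO libraries.

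The called peaks of these pathway genes were short. Their median length was 1500 bp (600 to 3400 bp, n = 38), and that of the 103 peaks not called 3600 bp (600 to 39800 bp). Of 17 pathway peaks of at least 9800 bp, the length of the *Kmt5a* peak, 0 were called higher by limma and the median log2 fold change was −0.18. The 4 member peaks of that length, in *Kmt5b*, *Kmt5a*, *Trp53bp1* and *Phf2*, had a median of −0.05, and 2693 tested peaks of that length a median of 0.01, with 70 called higher. The 12 shorter member peaks had a median of 0.05. No median of all tested peaks of such lengths was computed, and the part of peak length in the member values was not tested. The longest peak of the other writers, 39800 bp in *Nsd2*, scored 1906 ± 314 in Ctrl and 1390 ± 77.7 in *Kmt5b* sKO (SD over 3 libraries), a log2 fold change of −0.44 with a limma adjusted p of 0.0037, which is short of 1.5-fold. The longest of the KMT5A turnover genes, 28200 bp in *Skp2*, a subunit of the SCF ubiquitin ligase, scored 1105 ± 99.4 and 756 ± 42.9, a log2 fold change of −0.54 with a limma adjusted p of 0.00048. In both genes every *Kmt5b* sKO library lay below every Ctrl library. The longest peaks of the other classes had log2 fold changes of −0.41 in *Paxip1*, −0.35 in *Mms22l*, −0.24 in *Orc5*, −0.02 in *Rb1*, 0.08 in *Phf20l1* and 0.21 in *Rsbn1*, and that of the enzymes of other lysines −0.21 in *Kdm1a*.

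**Figure D4:**
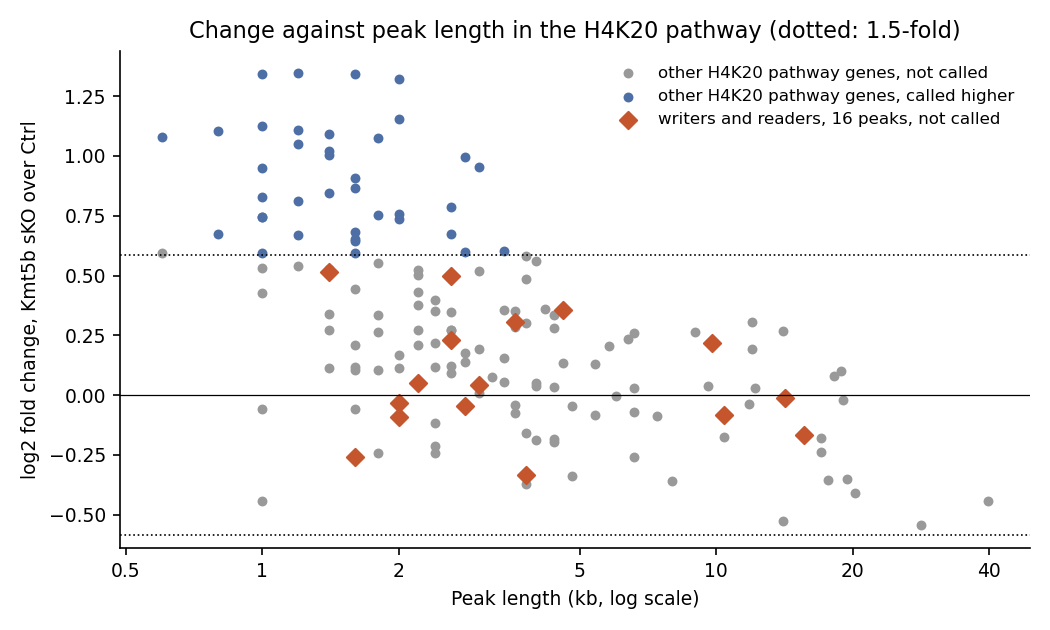
Log2 fold change of each tested peak against its length (kb, log axis) for the 16 member peaks (diamonds) and 141 peaks of other H4K20 pathway genes (circles, blue where called higher), with dotted lines at 1.5-fold. The blue circles end at 3400 bp, and no member lies above the upper dotted line.

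Over the whole table the summed score was 3893768 to 4729631 in Ctrl and 4699599 to 4930261 in *Kmt5b* sKO. Of 10 genes listed here as markers of muscle stem cells and myoblasts, 6 had a peak, *Pax7* and *Myod1* among them. Their signal summed to 9519 to 11141 in Ctrl and 11079 to 11886 in *Kmt5b* sKO. The listed genes *Myf5*, *Cdh15*, *Vcam1* and *Chrd* had no peak. Whether each listed gene marks these cells was not tested. Markers of differentiated muscle had a peak in 3 of 6 genes (594 to 1387 and 765 to 861) and endothelial markers in 2 of 4 (178 to 193 and 290 to 364). None of 4 fibro-adipogenic and 5 haematopoietic markers had a peak. S9.6 signal is not expression, and the part of these markers in the member values was not tested.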

How the data were processed

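DRIP-seq with S9.6 was measured in 3 Ctrl and 3 *Kmt5b* sKO libraries, and the input library of each genotype was not analysed here. Per the labels and the study's methods, the authors used FastQC 0.11.8, Trimmomatic 0.39, STAR 2.7.3a (mm10/GRCm38, with BDGP6 for the Drosophila spike-in), Picard 2.21.7 and Epic2 0.0.41 against input, and unified the peaks of all samples. The score deposited by the authors is signal over a union peak scaled by spike-in reads and rounded, so it is not a read count and no count model was run. The read totals that the study lists per library, lower in the *Kmt5b* sKO libraries, were not used here. Other columns deposited by the authors give peak positions and the distance to the start site in base pairs.

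Autosomal peaks with a mean score over 30 were fitted with limma 3.58.1 (R 4.3.3, lmFit, eBayes with trend) on log2(score + 1), two-sided, and called where the fold change exceeded 1.5 with an adjusted p below 0.1. A fold change on this log2 scale understates that of low scores. Prior degrees of freedom were infinite, so errors follow the trend across peaks. In simulated data 166 of 200 changed peaks among 25815 were recovered with 17 false calls, and 0 were called with none changed. The noise was normal with the fitted variances, and the planted log2 changes were 1 or 1.5 in either direction. The simulation therefore cannot check the variance model or the recovery of changes near 1.5-fold. Gene sums and ratios were compared with exact permutation tests (scipy 1.17.1). Exons and gene ends are those of GENCODE vM21, and sequence is from GRCm38 (RefSeq). Every member peak was described. Each pathway class was described by its counts and its longest tested peak, and likeness to *Kmt5b* was the Euclidean distance of centred log2 sums. The members and lists were chosen with earlier results of these data known. Same-numbered libraries were not paired (correlations of −0.027 to 0.011). Alternatives were other pseudocounts, filters, scalings, variance models and fold thresholds, X and Y included, a replicate block and leaving out each library. Matching by the symbol alone was chosen after seeing the data. Python 3.11.15, numpy 2.4.6, pandas 2.3.3, pysam 0.24.0 and matplotlib 3.10.9 were used.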

Additional observations from a re-analysis of the deposited data

How the results depend on the processing

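Of the main results recomputed under each alternative, 175 kept their direction or, for counts, stayed near the main count. Of the rest, 32 counts moved and 15 values changed sign. The tally does not follow p-values, and the *Kmt5b* peak with centring is among the 175. The fit cannot tell a common shift of all peaks from the spike-in scale. The median log2 fold change of all tested peaks was 0.35 on the deposited scale, 0.15 with equal library totals, −0.11 with each library centred on its median peak and −0.01 after quantile normalization, and that of the 16 member peaks was 0.02, −0.19, −0.44 and −0.22. Called peaks over the whole table were 8484 higher and 228 lower on the deposited scale, 5579 and 805 with equal totals, 2647 and 3073 with centring and 2071 and 1988 with quantile normalization. With a variance of its own for each peak they were 5454 and 75, with a fold change over 2, 3658 and 15, with no fold minimum, 10830 and 813, and with a mean score over 100, 1163 and 80. The reads behind a single score were not analysed here, so no limit set by depth is given. In each alternative below the cause was not tested.

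Member peaks called higher were 2 with no fold minimum and 0 to 1 with a library left out, where the second peak of *Trp53bp1* reached 0.59 without Ctrl replicate 3. Called lower were 3 with centring (*Orc1* first peak −0.79, *Phf2* peak 2 −0.72, *Trp53bp1* peak 5 −0.63) and 3 with quantile normalization (*Orc1* first peak −0.65, *Phf2* peak 2 −0.85 and peak 4 −0.60). Signs of peaks turned with centring in *Kmt5a* (−0.24), *Kmt5c* (−0.15), the second peak of *Orc1* (−0.23), the third and sixth of *Phf2* (−0.41 and −0.42) and peak 4 of *Trp53bp1* (−0.10). They turned with quantile normalization in the second peak of *Orc1* (−0.20), the third and sixth of *Phf2* (−0.50 and −0.44) and the first of *Trp53bp1* (−0.093), and with equal totals in the third and sixth of *Phf2* (−0.15 and −0.16).

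With a library left out, the *Kmt5b* peak and its gene sum ranged from −0.20 to 0.14, positive only without Ctrl replicate 2. The ranges were −0.16 to 0.17 for peak 1 of *Phf2*, −0.16 to 0.18 for peak 3, −0.18 to 0.050 for peak 4, −0.10 to 0.10 for peak 5 and −0.066 to 0.18 for peak 6, and −0.27 to 0.15 for the third of *Trp53bp1*. Gene sums ranged from −0.16 to 0.010 for *Orc1*, −0.077 to 0.073 for *Phf2* and −0.0098 to 0.10 for *Trp53bp1*. The log2 difference of *Kmt5b* ranged from −0.067 to 0.13 against *Orc1*, −0.14 to 0.063 against *Phf2* and −0.21 to 0.036 against *Trp53bp1*. Gene sums with centring were −0.24 for *Kmt5a*, −0.15 for *Kmt5c* and −0.43 for *Trp53bp1*, and *Trp53bp1* was −0.17 with equal totals and −0.16 with quantile normalization.

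Of the 38 pathway peaks called higher, the count was 14 with a fold change over 2, 3 with a mean score over 100, 20 with equal totals, 8 with centring, 5 with quantile normalization and 23 with a variance of its own for each peak. Called lower were 7 with no fold minimum, 4 with equal totals, 20 with centring, 9 with quantile normalization and 0 to 1 with a library left out. Enzymes of other histone lysines had 7 higher and 0 lower with a fold change over 2, 41 higher with no fold minimum, 3 and 0 with a mean score over 100, 17 and 8 with equal totals, 4 and 17 with centring, 4 and 15 with quantile normalization, 0 lower with a variance of its own for each peak, and 1 to 5 lower with a library left out.

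The replicate numbers share no stated source, and same-numbered libraries did not deviate together. With the replicate number as a block 8452 peaks were called higher and 223 lower over the whole table, 0 of them members, and the *Kmt5b* peak stayed at −0.08.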

Other observations

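The nearest peaks called higher in *Kmt5b* sKO were short and lay next to 2 member genes. *Rilpl2*, which follows *Kmt5a*, had a peak of 800 bp at chr5:124463800-124464599 with scores of 25, 29 and 17 in Ctrl and 56, 71 and 38 in *Kmt5b* sKO (log2 fold change 1.17, limma adjusted p = 0.0049). *Prpf38a*, next to the start of *Orc1*, had a peak of 800 bp at chr4:108578200-108578999 with scores of 12, 31 and 20 in Ctrl and 52, 65 and 28 in *Kmt5b* sKO (log2 fold change 1.18, limma adjusted p = 0.014), with overlap between the groups. The mean Ctrl score of the *Rilpl2* peak and that of the *Prpf38a* peak lay below the level filter, which they passed through the *Kmt5b* sKO libraries. The other tested peaks within 20 kb of the members were not called. Of all tested peaks 32.9% were called higher, and the calls beside the members were not tested against that share. *Suv39h1*, an H3K9 methyltransferase gene on the X chromosome, was left out of the test and had scores of 389, 477 and 352 in Ctrl and 309, 378 and 406 in *Kmt5b* sKO.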
